A study of Bos taurus with 20 samples.

Results

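The genes described here are the Wnt ligands, their receptors and secreted inhibitors, and a few genes that carry the signal inside the cell, measured by RNA sequencing in clones of bovine mesenchymal stem/stromal cells (MSCs). The rule for choosing them uses gene names and no measured value: every row of the count table whose symbol is that of a WNT, FZD, SFRP, DKK (1 to 4), RSPO (1 to 4) or LGR (4 to 6) gene, together with FRZB, WIF1, LRP5, LRP6, AXIN1, AXIN2, LEF1, TCF7, TCF7L1, TCF7L2, CTNNB1, DACT1 and DACT2. This gave 57 genes of the 33063 named genes in the table. MSCs were grown from visceral fat of crossbred calves up to a few months old, single cells were sorted and expanded, and each resulting clone was tested for its capacity to make fat cells. There were 10 adipogenic (A) clones, those that filled with lipid best, and 10 non-adipogenic (N) clones, which took up no lipid stain, with 1 library per clone. Animals 17 and 20 gave 1 A and 1 N clone each, and animals 22 and 23 gave 4 A and 4 N clones each. All clones had been grown in medium with serum and basic fibroblast growth factor, and none had been differentiated when its RNA was taken, so the levels are those of the cells before any fat had formed. A clone is the offspring of 1 sorted cell, A and N clones were selected by the outcome of the differentiation assay, and the RNA was taken from the whole population, so that fewer cells expressing a gene and less RNA per cell cannot be told apart.

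Wnt proteins are secreted, lipid-modified signals that bind Frizzled receptors (FZD) together with the co-receptors LRP5 and LRP6. In the canonical branch this halts the destruction complex built on AXIN, so that beta-catenin (CTNNB1) accumulates and switches genes on through the TCF and LEF factors, whereas the non-canonical branch, classically driven by WNT5A and WNT11, acts on cell shape and movement without beta-catenin. R-spondins (RSPO), which bind the LGR receptors, raise the number of Frizzled receptors at the cell surface, while the SFRP, DKK and WIF1 proteins are secreted and block ligands or co-receptors. Canonical Wnt signalling, WNT10B in particular, is known for holding preadipocytes back from becoming fat cells.

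The total count of named genes ranged from 14615493 to 29185355 in A clones and from 14908802 to 43111345 in N clones. The unit of a level is CPM, the count of a gene scaled to a common library size and by edgeR's TMM factor, and a fold change is the log2 of A against N clones from the fit with the animal as a block. The defining genes of MSCs were present, with all 11 stromal markers examined (PDGFRA and collagens among them) passing the filter on low counts. Of markers of other cells, the summed mesothelial level was 10344 and 7260 CPM in the N clones 22-5 and 22-9 against at most 639 CPM in the other N clones and 1214 CPM in the A clones. Of the 8 mesothelial markers tested only MSLN was called, lower in A clones (log2 fold change -1.97, adjusted p = 0.0393 by edgeR's quasi-likelihood test). The median log2 fold change of the 8 was -1.88, but KRT8 (0.72, adjusted p = 0.893) and KRT19 (1.16, adjusted p = 0.806) lay above 0. The summed level of 8 proliferation genes was lower in A clones (29 to 327 CPM, with 4 genes called lower) than in N clones (115 to 544 CPM), and 3 smooth muscle and pericyte genes of 8 tested (MYH11, CSPG4 and NOTCH3) were called higher in A clones. The summed endothelial markers stayed at or under 41.5 CPM and the leukocyte markers at or under 19.5 CPM in every clone, with CLDN5 at 0 counts, although EGFL7 and CD68 were called higher in A clones. Of the 8 mature adipocyte markers tested 2 rose (CIDEA, called higher, and PLIN1) and 1 fell (ADIPOR2) past an adjusted p of 0.05, and PCK1 was at 0 counts. Their sums were 62.2 to 146 CPM in A and 58.2 to 182 CPM in N clones. ADIPOR2 had the highest mean of these markers, 40.9 CPM in A and 58.3 CPM in N clones. ADIPOQ, left out by the filter, had means of 0.378 CPM in A and 0.047 CPM in N clones. Without the filter its log2 fold change was 2.75 (adjusted p = 0.0175, edgeR's quasi-likelihood test). The part of these differences in the results below was not tested, except where a fit without the clones 22-5 and 22-9 is given.

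Of the 57 genes, 30 passed edgeR's filter on low counts and were tested among 12900 genes. In edgeR's quasi-likelihood test 11 of them (36.7%) had an unadjusted p under 0.05, as did 36.1% of all genes. Calls are an adjusted p under 0.05 with a change of at least 2-fold in the quasi-likelihood test of edgeR (adjusted by Benjamini-Hochberg), and 5 genes were called higher in A clones: the ligands WNT11, WNT5B and WNT9A, the receptor FZD5 and the transcription factor TCF7. Over all genes tested, 3.95% were called higher and 1.81% lower. The number of these Wnt genes called lower was 0, near the 1.81% of all genes. It was also 0 in DESeq2 with the same block, which called 324 of 12900 genes lower. Without the 2-fold limit, 5 genes rose and 2 fell, TCF7L2 and LRP6, where 10.3% of all genes rose and 10.3% fell. The median log2 fold change of the 30 genes was 0.19, with 18 above 0 and 12 below, against a median of -0.0101 over all genes, of which 48.8% were above 0. DESeq2 with the same block called 7 of them higher, where it called 5.42% of all genes higher, adding WNT10B and WNT2B.

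**Figure D1:**
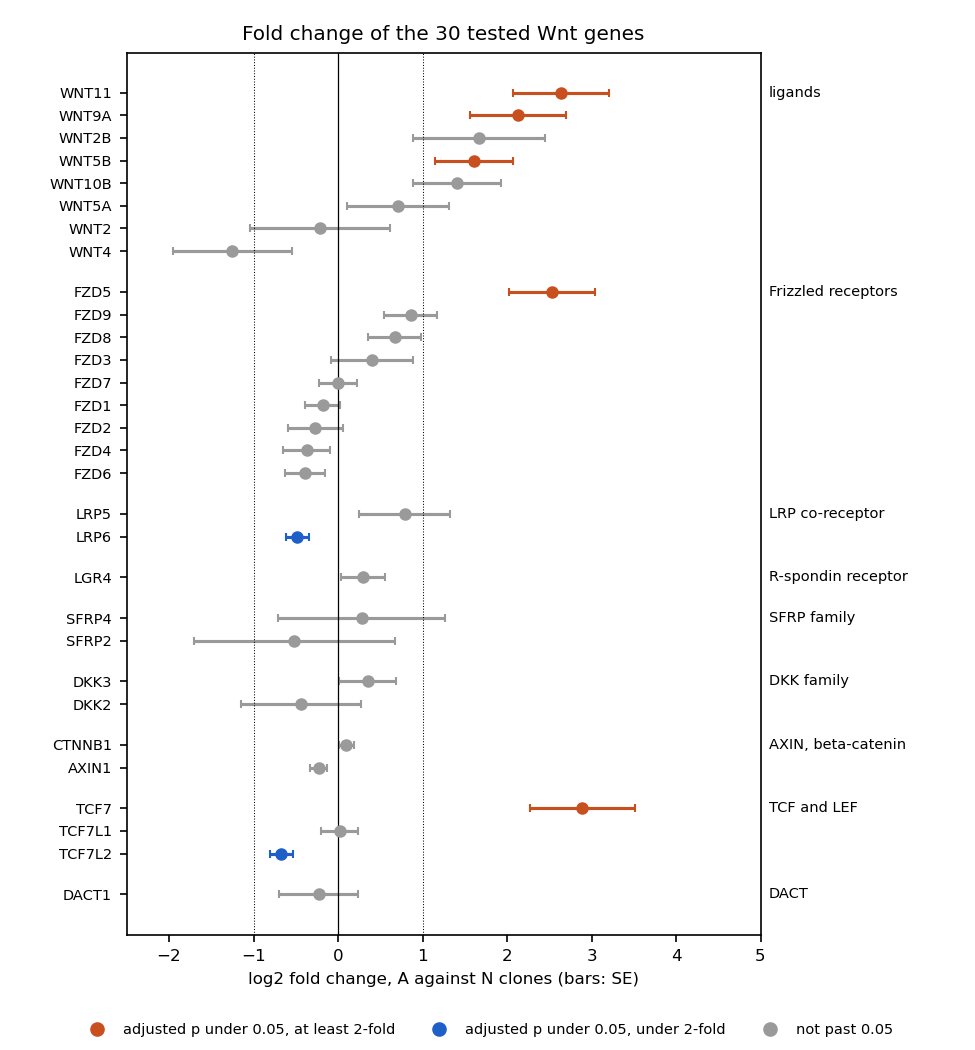
Log2 fold change of A against N clones (x axis, bars are the standard error of the fit) for the 30 Wnt genes that passed the filter on low counts, grouped by role. The 5 genes called higher (WNT11, WNT9A, WNT5B, FZD5 and TCF7) lie between 1.61 and 2.89, TCF7L2 and LRP6 lie at -0.67 and -0.48, and the other 23 genes did not pass an adjusted p of 0.05.

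All 7 genes past an adjusted p of 0.05 moved in the same direction in 4 of 4 animals. They had been selected by a fit of these same clones with the animal as a block, which favours a shared direction. So neither the shared direction nor the fits without 1 clone are separate evidence. Animals 17 and 20 gave only 1 clone per group, and the difference for LRP6 in animal 20 was -0.09 on the log2 scale. None of the 7 lost that adjusted p when any 1 of the 20 clones was left out. With the 8 clones of animal 23 left out, 0 of 32 Wnt genes were called by edgeR, where 0.168% of all genes were called (22 genes), and 7 Wnt genes (21.9%) had an unadjusted p under 0.05, as did 20.9% of all genes. The directions were kept in that fit: the log2 fold change was 2.93 for TCF7, 1.73 for WNT5B, 1.77 for WNT11, 1.72 for FZD5, 1.21 for WNT9A, -0.88 for TCF7L2 and -0.63 for LRP6, with adjusted p-values of 0.0539 to 0.296. With animal 22 left out, 4 of 30 Wnt genes were called higher, where 3.08% of all genes were. In edgeR's quasi-likelihood test TCF7 (log2 fold change 2.17, adjusted p = 0.0723) and LRP6 (-0.43, adjusted p = 0.165) then did not pass. The number of Wnt genes that fell past 0.05 was 0 there, so TCF7L2 did not pass either. Animal 23 alone gave 4 calls of 31 Wnt genes, where 3.76% of all genes were called. Animal 22 alone gave 0 calls of 33, where 1.03% of all genes were called, with 7 Wnt genes (21.2%) and 18.6% of all genes at an unadjusted p under 0.05. Without the N clones 22-5 and 22-9, a fit added after seeing the data, 6 of 32 Wnt genes were called higher, where 3.98% of all genes were, and LRP6 had a log2 fold change of -0.40 that no longer passed (adjusted p = 0.0721).

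Among the 19 ligands, 8 were tested. WNT11, a ligand of the non-canonical branch, had 0.412 CPM in the lowest, 1.8 CPM in the median and 14 CPM in the highest N clone, and 3.18, 10.1 and 49.1 CPM in the A clones. The groups overlapped, with 4 A clones (20-106, 22-27, 23-62 and 22-121) above every N clone, and the highest clone of either kind came from animal 20. Its mean rose from 3.62 ± 4.29 to 16.9 ± 15.5 CPM (SD, n = 10 each), a log2 fold change of 2.64 with a standard error of 0.566 and an adjusted p of 0.00547 by edgeR's quasi-likelihood test.

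WNT5B, a close relative of WNT5A known for promoting the conversion of preadipocytes to fat cells in mouse cell lines, had 3.99, 37.1 and 107 CPM in the lowest, median and highest N clone and 73.6, 100 and 222 CPM in the A clones. Every A clone was above every N clone except 22-18, which held the 107 CPM, and 4 A clones were above that clone too. The log2 fold change was 1.61 (SE 0.461, adjusted p = 0.0225 by edgeR's quasi-likelihood test). It was the only called gene with at least 10 counts in every clone, and its span overlaps that of FBXL14 in the RefSeq annotation of a newer assembly.

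WNT9A, a canonical ligand known from joint and skeletal development, was scarce, with 0, 0.272 and 3.6 CPM in the lowest, median and highest N clone and 0.365, 1.47 and 5.73 CPM in the A clones. Only the A clones 22-11 and 22-16 stood above all N clones, and the N clones of animal 22 (1.04 to 3.6 CPM) were above those of the other animals (at most 0.367 CPM). Its log2 fold change of 2.13 (SE 0.57, adjusted p = 0.0165 by edgeR's quasi-likelihood test) depended on the animal block: with no replicate block it was 1.40 with an adjusted p of 0.172.

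WNT10B, the ligand best known for blocking fat cell formation, had a mean of 5.24 ± 3.55 CPM in N and of 12 ± 7.75 CPM in A clones (SD, n = 10 per group). Its level was 0.659, 5.66 and 11.9 CPM in the lowest, median and highest N clone and 0.73, 9.91 and 24 CPM in the A clones. Clones 22-16, 23-14 and 22-11 carried the most, at 24, 22 and 20.7 CPM. The log2 fold change of 1.41 (SE 0.518) had an adjusted p of 0.0618 in edgeR's quasi-likelihood test and of 0.015 in DESeq2, and the difference of A and N means was above 0 in 4 of 4 animals, though at 0.06 and 0.02 on the log2 scale in animals 17 and 20. A single clone decided the call in edgeR: without 22-121, the A clone with the least WNT10B, the log2 fold change was 1.57 with an adjusted p of 0.0161. WNT2B, a canonical ligand, had an adjusted p of 0.0401 in DESeq2 and of 0.131 in edgeR's quasi-likelihood test, and 1 A clone, 20-106, held 19.1 CPM where the other A clones held 0.588 to 7.61 CPM.

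The remaining 3 tested ligands did not pass. WNT5A, the main non-canonical ligand of stromal cells, ranged from 1.04 to 185 CPM in N and from 3.87 to 231 CPM in A clones, a spread that left its log2 fold change of 0.71 with a standard error of 0.6 (adjusted p = 0.406, edgeR's quasi-likelihood test). WNT4, which acts through either branch, gave a log2 fold change of -1.25 (SE 0.704, adjusted p = 0.208) and WNT2, a canonical ligand, one of -0.21 (SE 0.828, adjusted p = 0.878).

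The filter left out 11 ligands. WNT3A, WNT8A and WNT9B had 0 counts in all 20 clones, which allows up to 3 counts per library, and WNT3, WNT6, WNT7A, WNT8B and WNT10A never exceeded 7 counts. The other 3, WNT1, WNT16 and WNT7B, had at least 10 counts in at least 1 clone. Fitted without the filter, 53 of the 57 Wnt genes gave a value. Of these, 11 were called higher, where 4.35% of all 23383 genes with at least 1 count were called higher and 1.11% lower. The number called lower was 0 in edgeR's quasi-likelihood test. The 6 that the filter had left out were WNT1, WNT16, WNT10A, RSPO3, LGR6 and LEF1.

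WNT1, the founding canonical ligand, had 0 counts in all 10 N clones and was detected in all 10 A clones. Its counts in A clones were 272 in 22-11, 125 in 22-16, 88 in 23-14, 15 in 22-27, 4 in 17-57 and in 23-68, 2 in 20-106, and 1 each in 22-121, 23-62 and 23-108. So 3 clones held nearly all of its reads, and 6 of the 10 A clones had no more than 4 counts. The mean of 2.52 CPM in A clones was at least 15.8-fold higher than 3 counts per N library, the limit that a count of 0 allows for counting error. The call without the filter (adjusted p = 0.0309 in edgeR's quasi-likelihood test) was lost without 22-11 or without 22-16, with an adjusted p of at most 0.0538, and without the N clones 22-5 and 22-9 (adjusted p = 0.0699). In all, 5 of the alternative fits lost it, the fit without animal 23 among them, with adjusted p-values up to 0.188 in edgeR's quasi-likelihood test. WNT1 and WNT10B are neighbouring genes in the RefSeq table, and the 3 A clones with the most WNT1 were also those with the most WNT10B.

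WNT16, a ligand known from bone, had 3 counts over all N clones and 381 over all A clones. Divided by the summed TMM-scaled library sizes, these gave a ratio of 139 with a 95% counting interval of 47.3 to 678. The gene reached 126 counts in 23-62, 109 in 23-14 and 96 in 22-11, whereas 20-106 and 23-108 had 0, so that the groups overlapped. WNT16 passed without the filter (adjusted p = 0.00284, edgeR's quasi-likelihood test) and without any 1 clone, but not without animal 22 (0.0728) or animal 23 (0.105), although the fitted log2 fold change of 6.31 was 6.29 and 5.17 in those fits. WNT10A had 12 counts in A and 1 in N clones, and its call was lost in 12 of the 20 fits without 1 clone, with fitted log2 fold changes of 2.04 to 3.06. WNT7B, another canonical ligand, did not pass (adjusted p = 0.389), and its highest counts, 105 and 37, were in the N clones 22-9 and 22-5, the clones with the high mesothelial sums.

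Of the 10 Frizzled receptors, the proteins that bind Wnt ligands at the cell surface, 9 were tested. Only FZD5 passed an adjusted p of 0.05, where 10.3% of all genes rose and 10.3% fell. The level of FZD5 was 0.272, 2.18 and 5.15 CPM in the lowest, median and highest N clone and 2.55, 11.5 and 36.2 CPM in the A clones. Here 7 of the 10 A clones were above all N clones, and the 3 that were not, 17-57, 20-106 and 23-108, held 2.55 to 2.72 CPM. The mean rose from 2.51 ± 1.63 to 14.2 ± 12.3 CPM (SD, n = 10 each), a log2 fold change of 2.53 with a standard error of 0.509 and an adjusted p of 0.00392 by edgeR's quasi-likelihood test.

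FZD8 ranged from 12.5 to 176 CPM in N and from 28.7 to 264 CPM in A clones and did not pass (log2 fold change 0.67, SE 0.316, adjusted p = 0.139, edgeR's quasi-likelihood test). FZD9 came closest among the rest, from 0.741 ± 0.475 to 1.31 ± 0.53 CPM (SD, n = 10 each), with an adjusted p of 0.0594 in edgeR's quasi-likelihood test and 0.0408 in DESeq2. For the other tested receptors, FZD1, FZD2, FZD3, FZD4, FZD6 and FZD7, the log2 fold changes lay between -0.39 and 0.40 with adjusted p-values of at least 0.242. FZD7 was at 71.7 ± 25.8 CPM in N clones and at 73 ± 30.6 CPM in A clones, with a log2 fold change of 0.00 and a standard error of 0.221. FZD10 had 2 counts in all, both in clone 20-106.

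The co-receptors LRP5 and LRP6 bind Wnt ligands together with Frizzled. LRP6 had 44.1, 71.5 and 125 CPM in the lowest, median and highest N clone and 35.9, 46.7 and 117 CPM in the A clones. The groups overlapped widely: both clones of animal 20 were high (125 and 117 CPM), and 3 A clones (17-57, 22-121 and 22-16) lay below every N clone. Within animals the difference was negative in 4 of 4, and the log2 fold change was -0.48 (SE 0.135, adjusted p = 0.0195 by edgeR's quasi-likelihood test). With no replicate block the log2 fold change was -0.44 with an adjusted p of 0.145, and with animal as a random effect in limma-voom it was -0.47 with an adjusted p of 0.0714. LRP5 did not pass (log2 fold change 0.79, SE 0.54, adjusted p = 0.303), and its level ran from 0.98 CPM in the N clone 20-15 to 47 CPM in the N clone 17-23.

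**Figure D2:**
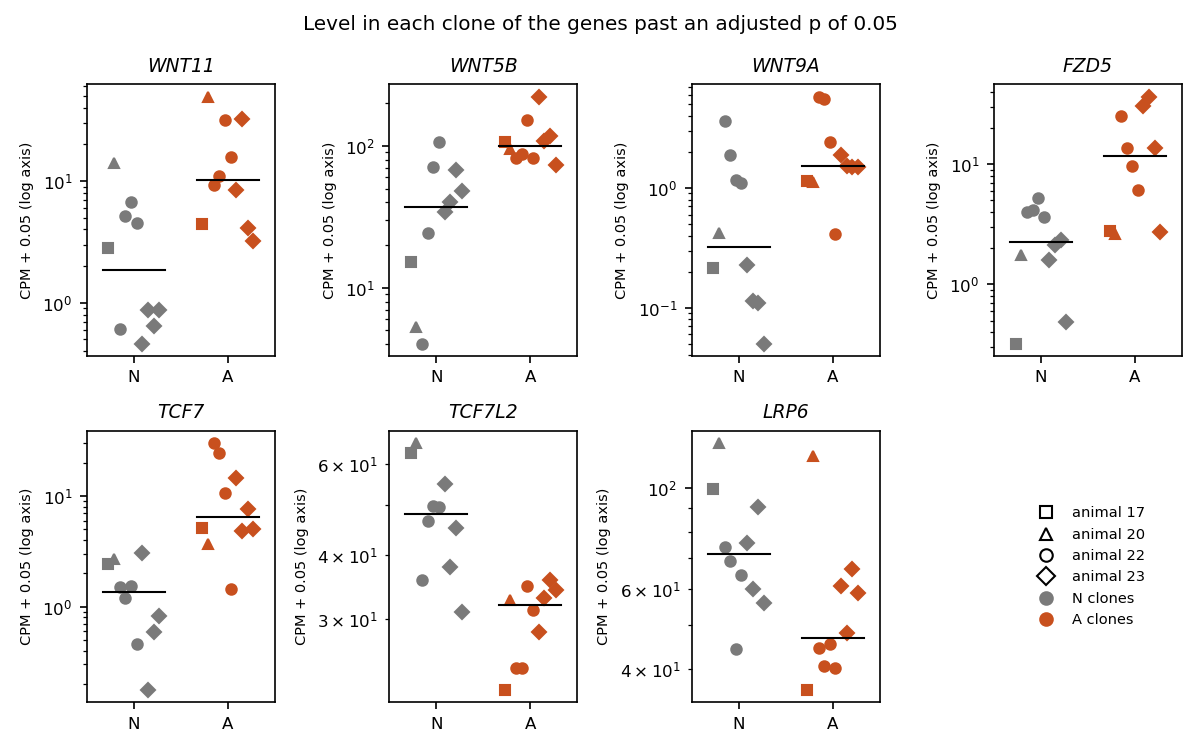
Level of the 7 Wnt genes past an adjusted p of 0.05 in each of the 20 clones, as CPM + 0.05 on log axes, for N (grey) and A (orange) clones, with the animal given by the symbol and the group median by a line. TCF7 was higher in 9 of 10 A clones than in any N clone, FZD5 in 7, WNT11 and WNT5B in 4 and WNT9A in 2, whereas 4 A clones for TCF7L2 and 3 for LRP6 lay below every N clone.

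R-spondins amplify Wnt signals, and RSPO3, like WNT1, was found almost only in A clones. It had 1 count over the 10 N clones, in 22-18, and was detected in all 10 A clones. The counts in A clones were 246 in 20-106, 131 in 22-11, 56 in 22-16, 45 in 23-62, 9 in 22-27, 7 in 23-68, 5 in 22-121 and in 23-14, 4 in 23-108 and 3 in 17-57. Every A clone was above every N clone, although 6 A clones had fewer than 10 counts. The ratio of summed counts, each divided by the summed TMM-scaled library sizes of the group, was 560, with a 95% counting interval of 100 to 2.22e+04. Of all genes with at least 1 count, 0.201% had every A clone above every N clone, and RSPO3 and WNT1 were the 2 Wnt genes among them. In edgeR's quasi-likelihood test without the filter RSPO3 had an adjusted p of 0.000128, and it passed in each of the 20 fits without 1 clone (at most 0.00524), without each animal (at most 0.0422), with no replicate block (0.000582) and without the N clones 22-5 and 22-9 (0.000935).

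LGR6, a receptor for R-spondins, had 2 counts in N clones, both in 17-23, and 181 in A clones. Divided by the summed TMM-scaled library sizes, these gave a ratio of 99.2 with a 95% counting interval of 27.1 to 825. The counts were highest in 17-57 (55), 23-62 (50), 22-11 (37) and 22-121 (22), and 3 A clones (20-106, 23-68 and 23-108) had 0. Without the filter its adjusted p was 0.002 in edgeR's quasi-likelihood test, and 0.0945 without animal 22, where the fitted log2 fold change was 5.72 against 6.26 with all animals. The A clone with the most RSPO3, 20-106, thus had no count of LGR6. LGR4, a widely expressed receptor of the same family, did not pass (79.8 ± 52 CPM in N and 89 ± 23.4 CPM in A clones, SD, n = 10 per group, adjusted p = 0.421, edgeR's quasi-likelihood test).

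LGR5, a stem cell receptor of the gut, had 12 counts in 5 A clones and 0 in the N clones, with a mean under the limit of 3 counts per library. RSPO2, a further R-spondin, was detected in all 10 A clones (2 to 39 counts) and in 6 N clones (up to 27 counts), and did not pass without the filter (log2 fold change 2.35, adjusted p = 0.0529, edgeR's quasi-likelihood test). It did pass without the N clone 22-18 (0.00906), without the A clone 22-11 (0.0312) and without animal 22 (0.0109). RSPO1 had 1 count and RSPO4 had 0 in all clones, so of the 4 R-spondins the 2 that were measurable, RSPO2 and RSPO3, had more counts in A than in N clones.

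**Figure D3:**
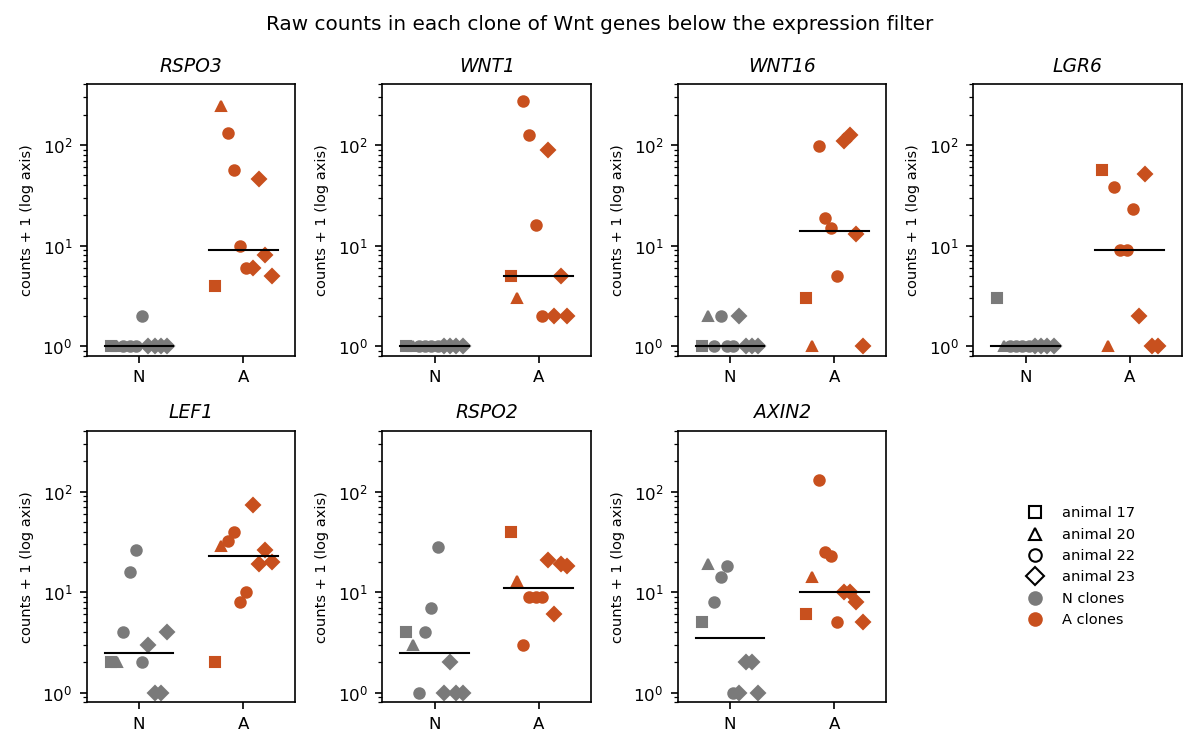
Raw counts + 1 on log axes in each of the 20 clones for 7 Wnt genes that the filter on low counts left out, with the animal given by the symbol and the group median by a line. RSPO3 and WNT1 were detected in all 10 A clones and had 1 and 0 counts over the 10 N clones, while LEF1, RSPO2 and AXIN2 overlapped between the groups.

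The secreted inhibitors are the SFRP, DKK and WIF1 genes, 10 in all. Of these 4 were tested and 0 passed in edgeR's quasi-likelihood test or in DESeq2. In edgeR 10.3% of all genes rose and 10.3% fell past 0.05. The lowest adjusted p of the 4 in edgeR's quasi-likelihood test was 0.483. SFRP2 and SFRP4, secreted proteins that resemble the ligand-binding part of Frizzled, varied more between clones than between groups. SFRP2 had 0.0509, 156 and 1765 CPM in the lowest, median and highest N clone and 0.136, 87.3 and 454 CPM in the A clones. The N clones 20-15 and 17-23 stood out at 1765 and 1194 CPM, while the A clone 17-57 of the same animal as 17-23 held 0.136 CPM. The A minus N difference was -12.28 and -5.60 on the log2 scale in animals 17 and 20, 3.45 in animal 22 and -0.85 in animal 23, so the direction was not shared, and the fit gave a log2 fold change of -0.52 with a standard error of 1.19 (adjusted p = 0.78, edgeR's quasi-likelihood test).

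SFRP4 was highest in the same 2 N clones, at 1867 CPM in 20-15 and 852 CPM in 17-23, and ranged from 1.4 CPM upwards in N and from 1.46 to 416 CPM in A clones. Its difference was negative in animals 17 and 20 (-1.56 and -3.10 on the log2 scale) and positive in animals 22 and 23 (1.23 and 0.99), with an adjusted p of 0.863 in edgeR's quasi-likelihood test. SFRP1, of the same family, was left out by the filter, had up to 34 counts in N and 29 counts in A clones, and did not pass without it (log2 fold change 2.61, adjusted p = 0.104, edgeR's quasi-likelihood test). It passed in 4 of the 20 fits without 1 clone, those without 17-23 (0.0235), 17-57 (0.023), 20-15 (0.0431) or 20-106 (0.0425), and so without animal 17 (0.0231) or animal 20 (0.0424). FRZB and SFRP5 never exceeded 5 counts.

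DKK3, a divergent member of its family whose action on Wnt is debated, was at 132 ± 78.6 CPM in N and 176 ± 104 CPM in A clones (SD, n = 10 per group, adjusted p = 0.483, edgeR's quasi-likelihood test). DKK2, which blocks LRP6, ranged from 0.735 CPM in the N clone 20-15 to 345 CPM in the A clone 20-106, the extremes both coming from animal 20 (adjusted p = 0.689). DKK1, the classical antagonist of LRP6, had 379 counts in 6 N clones and 240 counts in 8 A clones and did not pass without the filter (adjusted p = 0.704). Most of the N counts were in 22-18 (197) and 22-17 (135), and in both groups the clones of animals 17 and 20 had 0 counts of DKK1. WIF1 and DKK4 never exceeded 5 counts.

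Inside the cell, the mRNA of beta-catenin did not pass the test. CTNNB1 had 296, 368 and 433 CPM in the lowest, median and highest N clone and 341, 395 and 469 CPM in the A clones, with a log2 fold change of 0.10 (SE 0.0837, adjusted p = 0.403, edgeR's quasi-likelihood test). Signalling through beta-catenin acts on the stability of its protein, which was not measured. AXIN1, the scaffold of the destruction complex, was at 43.3 ± 7.72 CPM in N and 37 ± 3.54 CPM in A clones (SD, n = 10 per group, adjusted p = 0.102). AXIN2, which canonical Wnt signalling switches on in most cells and which therefore serves as its usual readout, had 0 to 18 counts in N and 4 to 128 counts in A clones, with 128 in 22-11 and 24 in 22-16. Without the filter its log2 fold change of 2.00 had an adjusted p of 0.0678 in edgeR's quasi-likelihood test, which passed at 0.0401 without animal 20 and rose to 0.166 without 22-11 and to 0.473 without animal 23. DACT1, which binds Dishevelled, overlapped between groups (9.16 to 75.5 CPM in N and 11.6 to 131 CPM in A clones, adjusted p = 0.744), and DACT2 had at most 3 counts.

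The TCF and LEF factors, which bring beta-catenin to DNA, moved in different directions. TCF7 had 0.126, 1.3 and 3 CPM in the lowest, median and highest N clone and 1.4, 6.36 and 29.9 CPM in the A clones. All A clones but 22-121 lay above every N clone, and 22-11, 22-16 and 23-14 were highest at 29.9, 24.3 and 14.6 CPM. The mean rose from 1.39 ± 0.994 to 10.7 ± 9.52 CPM (SD, n = 10 each), a log2 fold change of 2.89 with a standard error of 0.621 and an adjusted p of 0.00555 by edgeR's quasi-likelihood test, the largest change of the 30 genes.

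TCF7L2, which in preadipocytes carries the canonical signal, went the other way. It had 30.9, 48 and 65.9 CPM in the lowest, median and highest N clone and 21.7, 31.9 and 35.6 CPM in the A clones, so that no A clone exceeded 35.6 CPM, whereas 9 of 10 N clones did. The mean fell from 47.9 ± 11.3 to 29.9 ± 5.07 CPM (SD, n = 10 each), a log2 fold change of -0.67 with a standard error of 0.135 and an adjusted p of 0.00387 by edgeR's quasi-likelihood test. TCF7L1, which mostly represses, was at 12.9 ± 6.54 and 12.5 ± 3.92 CPM (adjusted p = 0.948). LEF1, usually an activator and itself a canonical target, had 0 to 25 counts in N and 1 to 72 counts in A clones, and its call without the filter (log2 fold change 2.65, SE 0.791, adjusted p = 0.0363) was lost in 10 of the 20 fits without 1 clone, with log2 fold changes of 2.29 to 3.08.

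The A clones were not uniform in these genes, and the same few ranked high for several of them. Clone 22-11 had the most WNT1, WNT9A, TCF7 and AXIN2 of the 10 A clones, and 22-16 was second in WNT1, WNT9A, TCF7, AXIN2 and LEF1 and first in WNT10B. Clone 23-14 was first in LEF1, second in WNT10B, WNT16 and FZD5, and next after 22-11 and 22-16 in WNT1 and TCF7. At the other end, 22-121 was last in TCF7, WNT9A and WNT10B but at rank 3 in LGR6, and 23-108 was last in WNT1, RSPO3 and AXIN2. The order was not shared by all of these genes: 23-62 was first in WNT16 and FZD5 but at rank 8 in WNT1 and TCF7 and rank 9 in WNT10B. The A clone 20-106 was first in RSPO3 but had the least FZD5 of the A clones, and it also held the most WNT11, WNT2B, WNT2 and DKK2. The summed mesothelial markers were 1214 CPM in 22-11 and 1056 CPM in 22-16, at most 441 CPM in the other A clones and 8.96 CPM in 23-14. Clones 22-11 and 22-16 also had the highest leukocyte sums of the A clones, 18.3 CPM in 22-11 and 19.5 CPM in 22-16, and 22-11 had the highest endothelial sum, 27 CPM. The part of these markers in the order of the A clones was not tested.

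Some Wnt genes differed between animals. Tested over the 4 animals with the condition in the fit, 4 of the 30 genes passed an adjusted p of 0.05 in edgeR's quasi-likelihood test (WNT4, WNT2, LRP6 and FZD8), where 4.6% of all genes did. WNT4 was at most 0.163 CPM in the 4 clones of animals 17 and 20 and between 0.992 and 184 CPM in all 16 clones of animals 22 and 23 (adjusted p = 0.0134). WNT2 showed the opposite order in 3 clones: the N clones 17-23 and 20-15 and the A clone 20-106 held 42, 39.8 and 44.5 CPM, whereas 17-57 held 0.136 CPM and no clone of animals 22 and 23 exceeded 4.07 CPM (adjusted p = 0.0134). FZD8 was between 12.5 and 42 CPM in animals 17 and 20 and between 20.4 and 264 CPM in animals 22 and 23 (adjusted p = 0.0429). LRP6, high in both clones of animal 20, had an adjusted p of 0.018, and WNT5A, next in order, had 0.0596. With the clones of animals 22 and 23 only, 0 of 32 Wnt genes passed between the animals, where 0.108% of all genes did, and 4 (12.5%) had an unadjusted p under 0.05, as did 12.3% of all genes. Animals 17 and 20 gave only 2 clones each, so an animal and its few clones cannot be told apart.

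**Figure D4:**
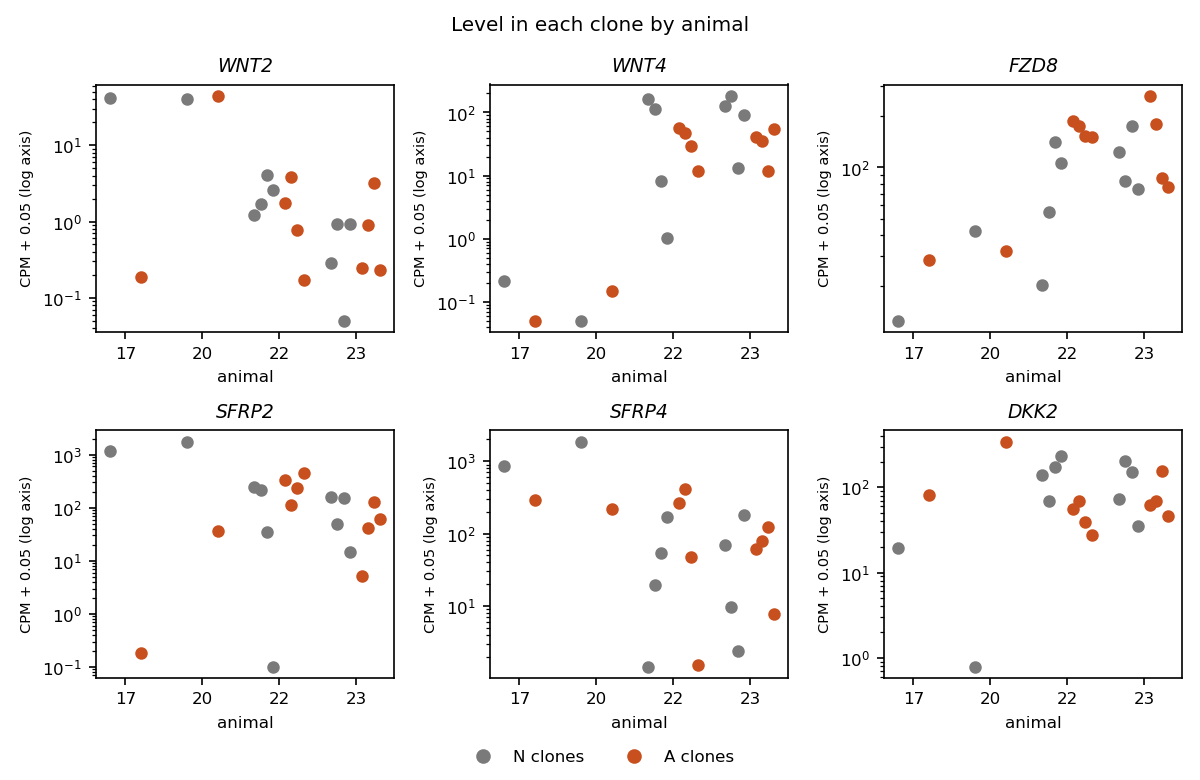
Level of 6 Wnt genes in each clone by animal, as CPM + 0.05 on log axes, for N (grey) and A (orange) clones. WNT4 lay at or under 0.163 CPM in animals 17 and 20 and above it in all clones of animals 22 and 23, 3 clones of animals 17 and 20 held 39.8 CPM or more of WNT2, and SFRP2 and SFRP4 were highest in the N clones of animals 17 and 20.

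An animal-dependent difference was looked for in the 16 clones of animals 22 and 23 for the 32 Wnt genes that could be fitted. In edgeR's quasi-likelihood test of the interaction, 0 passed an adjusted p of 0.05, where 0.031% of all genes did, and 7 (21.9%) had an unadjusted p under 0.05, as did 9.06% of all genes (DKK1, FZD5, FZD1, FZD3, LRP5, LEF1 and WNT9A). For all 7 the A minus N difference was more positive in animal 23, such as 3.29 against 0.48 on the log2 scale for WNT9A and 3.29 against 1.48 for FZD5. The lowest adjusted p among the Wnt genes was 0.319, for DKK1, so a difference between these animals was not shown for any of them.

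Other genes of the pathway were taken from lists of the secretion machinery, co-receptors, destruction complex, nuclear cofactors, planar polarity branch and common target genes, 101 in all, of which 82 were tested. Of these 2 were called higher and 2 lower, where 3.95% of all genes tested were called higher and 1.81% lower. Without the 2-fold limit 5 rose and 8 fell, where 10.3% of all genes rose and 10.3% fell. The median log2 fold change was -0.06. APC, the core of the destruction complex, rose from 139 ± 40.2 to 291 ± 99.4 CPM (SD, n = 10 each, adjusted p = 0.000725 by edgeR's quasi-likelihood test), and TSPAN12, a co-receptor of FZD4, rose from 9.44 ± 5.36 to 32 ± 16.2 CPM (adjusted p = 0.00604). FRAT2, which inhibits the kinase GSK3, fell from 2.1 ± 0.78 to 0.962 ± 0.454 CPM (adjusted p = 0.00991).

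JUN, an AP-1 factor listed among the targets, fell from 241 ± 56.4 to 115 ± 48.2 CPM (SD, n = 10 each, adjusted p = 0.00134 by edgeR's quasi-likelihood test), from 193 to 372 CPM in N and from 66.1 to 186 CPM in A clones. Of the 16 target genes tested, 2 rose and 2 fell without the 2-fold limit. The log2 fold change was 0.60 for MYC, 0.71 for VEGFA, -1.12 for JUN and -0.84 for ID2. Over all genes tested 10.3% rose and 10.3% fell, the shares to set beside this count and those of the other lists. Among the 17 nuclear cofactors tested 1 rose and 4 fell, among the 24 genes of the destruction complex 1 rose and 1 fell, among the 12 co-receptors and regulators 1 rose and 0 fell, and among the 13 planar polarity and calcium genes 0 rose and 1 fell. Of the 2 secretion genes tested 0 passed, with WLS, which carries Wnt proteins to the cell surface, at 96.5 ± 18.2 CPM in N and 102 ± 27.9 CPM in A clones (adjusted p = 0.697).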

How the data were processed

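The authors sequenced RNA from 20 clones and deposited raw counts per gene; the submitters' processing notes name bcl2fastq 2.20, Trimmomatic 0.36, STAR 2.5.2b, featureCounts (Subread 1.5.2) and the build ARS-UCD1.2. The strand setting and the treatment of overlapping genes are not given in the sources used here, so counts of overlapping genes (14 of the 57 overlap another gene in the RefSeq table of ARS-UCD2.0, which was used for names and neighbours only) are uncertain. WNT5B, WNT11, LRP6, WNT2B, WNT10A and LEF1 are among those 14. The unnamed row (0.113% to 0.333% of counts) was left out, and 0 columns belonged to samples outside the series. Groups, animals and clones came from the sample labels. Clones were cultured separately, and 0 pairs had identical counts.

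Counts were fitted in R 4.3.3 with edgeR 4.0.16 (TMM, default filter on condition, robust quasi-likelihood test, Benjamini-Hochberg over all genes tested), with animal as a block. A and N clones were paired by animal; after subtracting each group's mean, their mean profiles had correlations of 0.253 (animal 17), 0.192 (animal 20), 0.241 (animal 22) and 0.44 (animal 23). A call needs an adjusted p under 0.05 and a 2-fold change. Differences per animal are of mean log2 CPM with a prior count of 2. Counting intervals and the limit of 3 counts cover counting error only. The script was tested on simulated counts. Alternatives were no block, DESeq2 1.42.0 size factors and tests, upper-quartile factors, limma 3.58.1 (voom, animal as a random effect), no filter, at least 10 counts in every clone, no robust dispersion, and each animal and clone left out. The members and all gene lists were chosen with earlier results of these data known. Named genes are those past 0.05, those left out by the filter with at least 10 counts in a clone, the gene with the highest mean CPM over all clones in each role (not corrected for transcript length, a rule for naming only), the 5 with the smallest p between animals, and called genes of the other pathway lists; other genes named were chosen after their values were seen.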

Additional observations from a re-analysis of the deposited data

Results flagged for a closer look

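In each group of 10 clones, a clone was marked when its gap to the next one, divided by the range of the group, exceeded 0.466. Gap and range were taken on log2 CPM, while the levels below are printed as CPM. Of 79 groups of clones examined 9 were marked, where a rate of 1 in 20 gives about 3.95. That rate is for independent, normally distributed values, which clones pooled from 4 animals and genes near 0 counts need not follow. AXIN1 was high in the N clone 22-5 (62.6 CPM against 45.1 CPM in the next clone, gap 0.544 of the range), and the same clone was low in DACT1 (9.16 against 28.3 CPM, gap 0.534). The N clone 22-18, which has the largest library, was low in FZD2 (0.61 against 4.02 CPM, gap 0.528) and in SFRP2 (0.0509 against 14.8 CPM, gap 0.489). DKK2 was low in the N clone 20-15 (0.735 against 19.2 CPM, gap 0.557). Among A clones, LRP6 was high in 20-106 (117 against 66.2 CPM, gap 0.482), and WNT10B was low in 22-121 (0.73 against 5.75 CPM, gap 0.579). RSPO3 in N clones was marked for a single count in 22-18 and LGR6 for 2 counts in 17-23, each with a gap of 1 because all other N clones had 0 counts.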

How the results depend on the processing

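The count of 5 Wnt genes called was 4 with no replicate block (WNT9A and, without the 2-fold limit, LRP6 were lost), 7 with DESeq2 and the block, and 5 to 7 over the fits without 1 clone. It moved to 11 without the filter on low counts and to 1 with at least 10 counts in every clone (WNT5B, since 20 Wnt genes were then tested). The count was 4 without animal 22, 0 without animal 23 and 0 in animal 22 alone. The count of 11 without the filter ranged from 8 to 13 over the fits without 1 clone, and was 6 without animal 22, 2 without animal 23 and 7 without the N clones 22-5 and 22-9, fits that were added after seeing the data. Of all genes in the fits without the filter, 1.98% were called higher without animal 22, 0.21% without animal 23 and 3.25% without 22-5 and 22-9. The count of genes that differed between animals was 0 with animals 22 and 23 only, against 4 with all animals. The count of 0 in the interaction test was 0 in every alternative run. No called gene reversed its direction under any alternative run. A single clone decided whether WNT1, WNT10A, LEF1, AXIN2, RSPO2, SFRP1, WNT10B and FZD9 passed. A single animal decided it for LGR6, WNT16, WNT1 and the 7 genes past 0.05, among others. The 4 genes at 0 counts could still be present below 3 counts per library.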
